A study of Mus musculus with 18 samples.

Results

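The comparison described here is that of Oct1 conditional knockout (cKO) cells with parental cells at day 6 of a mouse differentiation towards mesoderm. It comprises the 6 of 18 RNA-seq libraries whose titles carry the labels KO-6 and WT-6, 3 of each genotype, and every gene of the count table. Parental and cKO embryonic stem cells (ESCs) were grown on gelatin and taken through the protocol of Chal and colleagues, which leads ESCs through presomitic mesoderm towards skeletal muscle, and RNA was sequenced in bulk at day 0, day 3 and day 6. Both genotypes had the same treatment and time in culture, and the labels give no strain, clone, sex or method of deletion. The cKO genotype is a deletion of Oct1, the protein encoded by Pou2f1. Whether the libraries of a genotype stand for separate cultures is not in the labels, so p-values measure only the spread between these 6 libraries and the others in the fit.

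Oct1 is a widely expressed transcription factor of the POU family, which binds the octamer ATGCAAAT and related sequences in promoters and enhancers. It is known as an activator of the promoters of histone H2B and small nuclear RNA genes, and shares its binding sequence with Oct4 (Pou5f1), the pluripotency factor of ESCs. In the embryo, cells leaving the primitive streak form the notochord and the presomitic mesoderm, the latter segments into somites, and each somite divides into sclerotome, the source of vertebrae and ribs, and dermomyotome, the source of skeletal muscle. The title of the study connects Oct1 with Smad factors, the transcription factors that carry the signals of the TGF-beta and BMP families.

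The level of Pou2f1 itself was 137, 142 and 140.5 CPM (read counts normalised to library size) in parental libraries 1, 2 and 3 and 84.02, 65.4 and 82.5 CPM in cKO libraries 1, 2 and 3. All cKO libraries lay below all parental ones, with a log2 fold change of -0.86 ± 0.11 (SE; adjusted p = 7.91e-06). Reads of the whole gene are summed, so transcripts that lack the deleted part still count, and the protein was not measured. The labelled cell type, ESC, was that of the starting cells: summed over Pou5f1, Nanog, Sox2, Zfp42 and Esrrb, the level was 214 to 219 CPM in parental and 25.1 to 46.8 CPM in cKO libraries, against means of 3517 CPM and 4270 CPM in the day 0 parental and cKO groups. Of the day 6 sums, Sox2, which neural progenitors share, held 183 to 186 CPM in parental and 11.2 to 40.1 CPM in cKO libraries.

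Library totals ran from 14046322 to 26848049 counts at day 6. The KO-6 library called cKO replicate 2 here stood apart from its replicates. In a principal component analysis of log2 CPM, the first component, with 67.5% of the variance, placed the parental libraries at 59.68, 56.13 and 60.39 and the cKO libraries at -33.76, -105.54 and -36.89, and the second, with 16.9%, placed cKO replicate 2 at 47.01 and the other cKO libraries at -42.55 and -39.47. Replicates 1 and 3 differed by at least 2-fold in 985 genes, and replicate 2 differed from them by as much in 3858 and 3740 genes. The parental pairs differed in 652 to 1008 genes. Counts of called genes are therefore also given without cKO replicate 2, and so is any named change that its omission moved by more than 1.5 times.

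**Figure D1:**
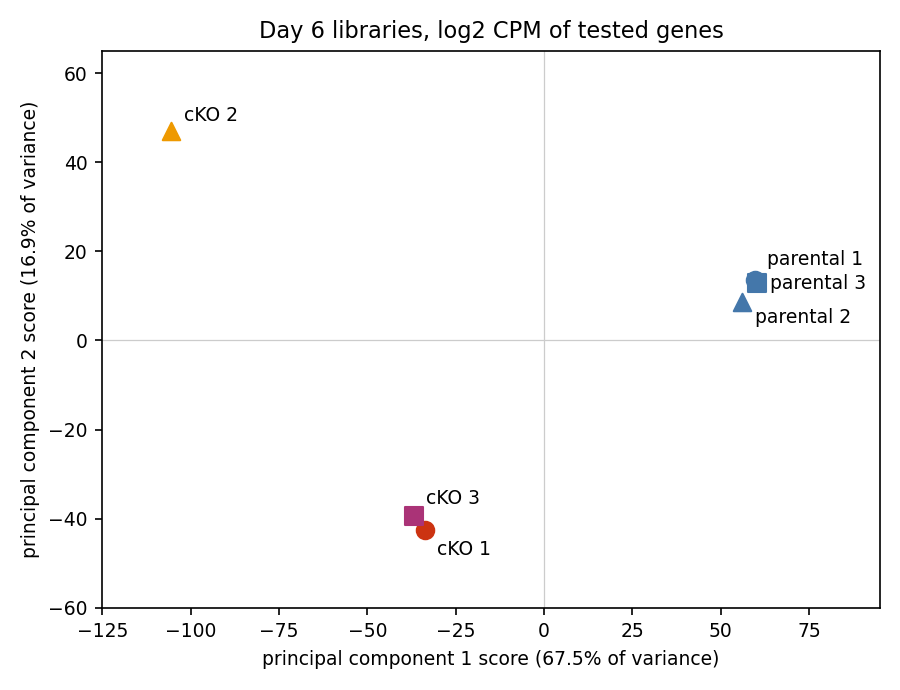
Scores of the 6 day 6 libraries on the first (horizontal axis) and second (vertical axis) principal component of log2 CPM over the tested genes, without units. Blue symbols are parental and warm colours cKO libraries, and cKO replicate 2 lies at -105.54 and 47.01, apart from cKO replicates 1 and 3, while the parental libraries lie together.

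Of 20267 genes with enough counts to test, 4036 (19.9%) were higher and 5202 (25.7%) lower in cKO cells at an adjusted p under 0.05, with 1687 and 1803 changed 2-fold or more. Fitted without cKO replicate 2, 4170 (20.0%) of 20814 genes were higher and 5292 (25.4%) lower, with 1305 and 1578 changed 2-fold or more. The calls shared by both fits were 3477 higher and 4591 lower, no gene was called in opposite directions, 1170 calls were lost and 1303 gained. All 3 cKO libraries lay above all 3 parental libraries in 4230 genes (20.9%) and below them in 6207 genes (30.6%). The median log2 fold change over all tested genes was -0.09, or -0.08 without replicate 2. Of the called genes 43.7% were higher, a share that depended on the fit: it was 36.9% with scaling to total counts, 54.1% when the day 0 libraries were left out and 53.8% with no filter on low counts. How many members of a list were called is to be read against these shares.

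Replicate 2 mostly lay on the same side of the parental level as its replicates, and often farther from it. Of 1254 genes at least 2-fold higher in the fit without it, 908 were at least 2-fold higher in replicate 2 as well, 256 were higher by less and 90 lay on the other side, 11 of those by 2-fold. Of 1538 genes at least 2-fold lower, the corresponding numbers were 1140, 313, 85 and 12. The median log2 difference of the higher genes was 1.42 in replicates 1 and 3 and 1.96 in replicate 2, and that of the lower genes was -1.38 and -1.69.

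Acta1 and Lox were among the named genes in which replicate 2 exceeded its replicates most on log2 CPM. Acta1, skeletal alpha-actin, was at 14.2, 14.8 and 12.7 CPM in the parental libraries and at 30.5, 349 and 31.1 CPM in the cKO libraries. Lox, an enzyme that crosslinks collagen, was at 8.0, 169 and 15.2 CPM in cKO against 4.94, 3.45 and 3.63 CPM in parental libraries. All cKO libraries were above all parental ones in both genes, and replicate 2 was far above its replicates. Their log2 fold changes of 3.30 ± 0.77 and 4.0 ± 0.95 (adjusted p = 0.00357 and 0.00435) became 1.14 and 1.53 without it, and Acta1 was not called when the day 6 libraries were fitted alone (adjusted p = 0.0517). Htr1d, a serotonin receptor, and Acpp, an acid phosphatase, were called over all libraries (2.48 ± 0.77 and 2.14 ± 0.70, adjusted p = 0.0167 and 0.0232) but not without replicate 2 (0.24 and 0.11, adjusted p = 0.664 and 0.745). The genes in which replicate 2 fell furthest below its replicates included Meox1, a somite homeobox gene, at 131, 29.6 and 135 CPM against 68.2, 78.7 and 71.9 CPM, and Crabp1, which binds retinoic acid, at 179, 35.1 and 172 against 113, 115 and 112 CPM. For these, replicates 1 and 3 lay above the parental libraries and replicate 2 below them, so that neither was called over all libraries (adjusted p = 0.416 and 0.741) and both were higher without replicate 2 (log2 fold changes of 0.87 and 0.63, adjusted p = 2.34e-07 and 5.33e-07).

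**Figure D2:**
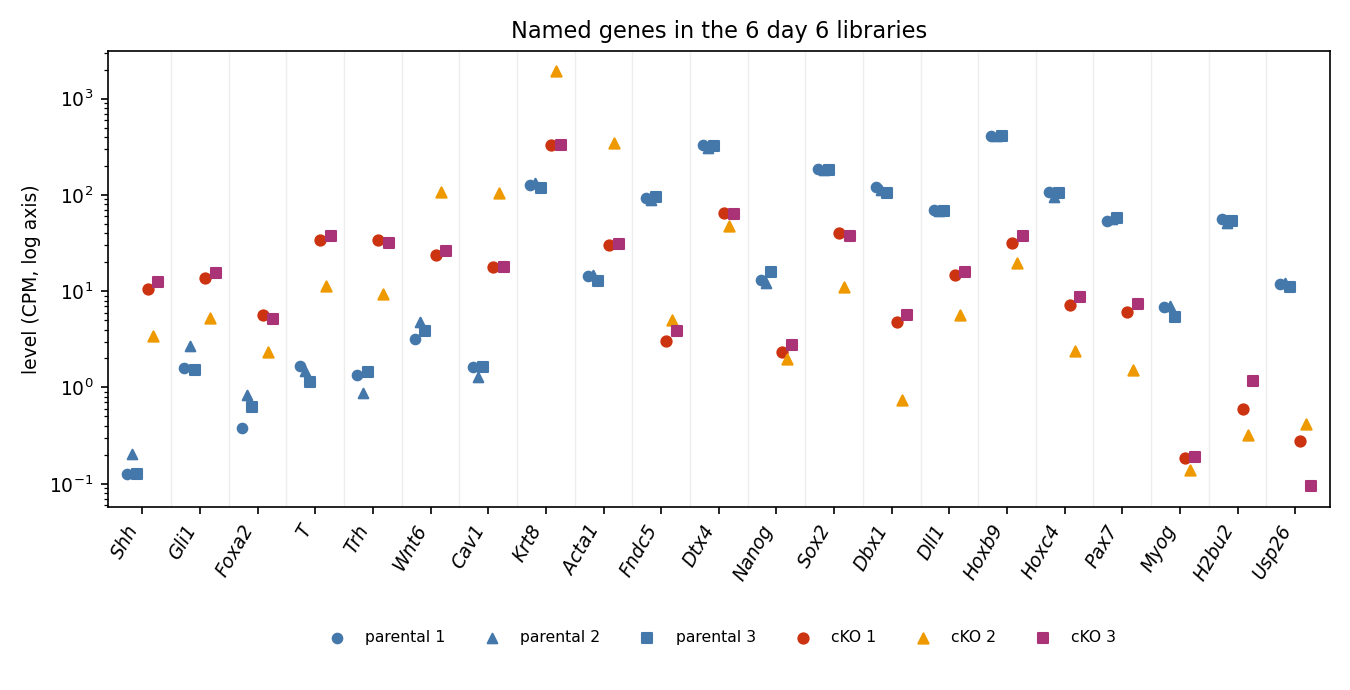
Level (CPM, log axis) of 21 named genes in each day 6 library, parental in blue and cKO in warm colours. Higher genes stand to the left and lower ones to the right, and cKO replicate 2 (triangle) lies apart from replicates 1 and 3 in most genes, above them for Krt8 and Acta1 and below them for Shh, T and Dbx1.

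Several genes of the Hedgehog pathway, which patterns somites and neural tube from the notochord and floor plate, were higher in cKO cells. Shh, the ligand, was at 0.127, 0.203 and 0.125 CPM in the parental libraries and 10.4, 3.45 and 12.6 CPM in the cKO libraries. It was at 0.203 CPM or less in every parental library and far higher in every cKO library, and its log2 fold change of 5.75 ± 0.56 (adjusted p = 9.00e-07) was the largest rise among the protein-coding genes named by size of change. Gli1, a transcription factor and direct target of the pathway, was at 1.61, 2.67 and 1.503 and 13.7, 5.296 and 15.6 CPM. Hhip, a membrane protein that binds and sequesters the ligand, was at 1.39, 1.28 and 1.75 and 10.6, 4.38 and 8.22 CPM. In both, cKO replicates 1 and 3 were highest, replicate 2 intermediate and the parental libraries lowest, with log2 fold changes of 2.54 ± 0.30 and 2.40 ± 0.32 (adjusted p = 3.27e-06 and 1.08e-05). Foxa2, a factor of notochord, floor plate and endoderm, rose by 2.79 ± 0.41, and Foxa1 by 3.04 ± 0.46. Of 16 tested Hedgehog genes 8 were called higher and 3 lower (median 0.32), and 9 and 3 without replicate 2. The receptor gene Ptch1 was at 104, 103 and 94.3 CPM in parental and 132, 42.2 and 142 CPM in cKO libraries, where replicate 2 lay below all others, and was called only without it (0.45, adjusted p = 9.75e-07). Scube2, a secreted protein that helps to release the lipid-modified ligand, changed by -4.43 ± 0.27 (adjusted p = 3.34e-09), from 70.7, 62.1 and 63.8 to 4.16, 1.52 and 3.45 CPM.

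Genes of somites and sclerotome differed in both directions in cKO cells, and so did muscle genes, several muscle regulators being lower. Pax9, a sclerotome paired-box gene, was at 2.197, 1.76 and 2.38 CPM in parental and 9.66, 3.59 and 9.82 CPM in cKO libraries (log2 fold change 1.88 ± 0.30, adjusted p = 5.66e-05). Its parental libraries lay below every cKO library. Pax1, its paralogue, was at 4.65, 7.34 and 5.198 and 25.9, 7.23 and 32.1 CPM, where replicate 2 fell within the parental range (1.91 ± 0.46, adjusted p = 0.00345). Nkx3-2, which acts after Pax1 and Pax9 in vertebral development, rose by 1.96 ± 0.46 (adjusted p = 0.00208). Sox9, a factor of sclerotome, cartilage and neural crest whose gene lies on chromosome 11, was at 130.4, 126 and 132 and 93.5, 47.3 and 98.2 CPM and fell (log2 fold change -0.70 ± 0.22, adjusted p = 0.0158, or -0.44 without replicate 2, but an adjusted p of 0.0865 in the day 6 libraries fitted alone). The somite gene Uncx was not called (adjusted p = 0.429). The somite and sclerotome list, 16 genes, had 6 higher and 3 lower (median 0.52), or 11 and 3 without replicate 2 (median 0.85). The median difference of that list from the parental mean was 0.80 and 0.85 in replicates 1 and 3 and -0.68 in replicate 2.

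Pax7, a factor of dermomyotome and muscle progenitors that is also made in dorsal neural tube, was at 53.8, 56 and 57.3 CPM in parental and 6.104, 1.52 and 7.37 CPM in cKO libraries. Pax3, its paralogue with like sites of expression, was at 79.8, 78.5 and 83.7 and 53.3, 17.2 and 53.8 CPM. In both, replicate 2 was the lowest and the parental libraries the highest, and the log2 fold changes were -3.48 ± 0.34 and -0.96 ± 0.30 (adjusted p = 1.05e-06 and 0.0163). Pax3 was not called when the day 6 libraries were fitted alone (adjusted p = 0.115). Myog, which drives myoblast differentiation, was at 6.93, 6.97 and 5.45 and 0.185, 0.138 and 0.189 CPM. Myh3, embryonic myosin heavy chain, was at 6.68, 6.32 and 5.07 and 0.0462, 0.184 and 0.472 CPM. Every cKO library was at 0.472 CPM or less in these genes, which had log2 fold changes of -5.19 ± 0.38 and -4.66 ± 0.40 (adjusted p = 3.10e-08 and 7.48e-08). Cdh15, the cadherin of myoblasts, changed by -2.29 ± 0.29, whereas Met, the receptor of migrating muscle precursors and of many epithelia, rose by 1.58 ± 0.22. The 16 myogenic genes had 2 higher and 6 lower (median -0.47), or 5 and 4 without replicate 2 (median -0.11). Myod1 had too few reads to be tested. The 23 sarcomere and muscle structure genes, Myh3 among them, went both ways, with 6 higher and 8 lower. Acta1, Tnni2 and Tnnc1 were among the higher in both fits.

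Neural genes were lower in cKO cells. Of 34 tested genes that pattern neural progenitors 21 were called lower and 6 higher (median -2.01), or 22 and 7 without replicate 2. Of 14 proneural factors 12 were lower and none higher in both fits. Dbx1, of interneuron progenitors, was at 122, 112 and 104 CPM in parental and 4.76, 0.737 and 5.71 CPM in cKO libraries. Sox1, an early neural plate gene, was at 58.7, 58.2 and 59.5 and 24.7, 4.61 and 20.2 CPM. Parental libraries lay above all cKO libraries in both genes and replicate 2 lay lowest, with log2 fold changes of -4.91 ± 0.56 and -1.83 ± 0.39 (adjusted p = 0.000338 and 0.00185). Sox2, shared by ESCs and neural progenitors, was at 186, 184 and 183 and 40.1, 11.2 and 37.1 CPM (-2.65 ± 0.32, adjusted p = 2.35e-05). Olig3 and Gsx1, of dorsal progenitors, changed by -4.13 ± 0.42 and -3.63 ± 0.49, and Nkx2-9, a Hedgehog-responsive gene of the ventral tube, by 3.24 ± 0.51.

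Among 31 genes of post-mitotic neurons 18 were lower and 2 higher (median -1.37), or 17 and 4 without replicate 2. Robo3, a receptor that lets commissural axons cross the midline, was at 14.3, 10.7 and 11.3 CPM in parental and 1.02, 0.645 and 1.09 CPM in cKO libraries. Unc5a, a netrin receptor, was at 30.7, 23.8 and 27.2 and 1.99, 1.15 and 2.503 CPM. Dcc, the attractive netrin receptor, was at 35.4, 31.6 and 33.5 and 6.06, 1.84 and 5.997 CPM. All cKO libraries lay below all parental ones in these 3 genes, with log2 fold changes of -3.71 ± 0.31, -3.85 ± 0.28 and -2.85 ± 0.31 (adjusted p = 4.40e-08, 7.93e-09 and 1.55e-06). Unc5b, another netrin receptor, which is also found on vessels and epithelia, rose by 2.74 ± 0.39 (adjusted p = 0.000101), from 19.5, 18.6 and 18.98 to 67.8, 245 and 68.7 CPM (1.84 without replicate 2). The 26 axon guidance genes had 7 higher and 9 lower, or 10 and 9 without replicate 2. Some neural genes were not called: Nes, an intermediate filament of progenitors, was at 452, 439.6 and 408 and 424, 502 and 413 CPM (adjusted p = 0.654), and Tubb3 at 61.4, 59.8 and 54.6 and 73.8, 63.7 and 66.1 CPM (adjusted p = 0.0657). Tubb3 was called higher in the fit without replicate 2.

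The summed level of the neural markers Sox1, Pax6, Tubb3, Dcx and Elavl3 was 291 to 325 CPM in parental and 143, 78.2 and 124 CPM in cKO libraries, 4 of the 5 being lower. That of the epithelial markers Cdh1, Epcam and Krt8 was 219 to 238 CPM in parental and 582, 2913 and 597 CPM in cKO libraries, all 3 being higher. Somite markers (Meox1, Tcf15, Uncx) summed to 84.6 to 97.5 CPM and to 162, 37.2 and 161 CPM, with none called over all libraries. Meox1 and Tcf15 were called higher in the fit without replicate 2. The muscle markers Myog, Myf5 and Acta1 summed to 20.0 to 23.4 CPM in parental and 31.7, 350 and 32.1 CPM in cKO libraries. Of these Acta1 was higher, while Myog and Myf5 were lower, Myf5 not without replicate 2. Endothelial markers summed to 18 to 26.2 and to 39.0, 18.3 and 43.1 CPM, and fibroblast markers to 762 to 805 and to 1103, 1203 and 1129 CPM. In bulk RNA, fewer cells of a type and less RNA per cell cannot be told apart, and the part of these cell types in the results for other genes was not tested.

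Hox genes, whose order along their clusters matches their order along the body axis, were mostly lower in cKO cells. In the HoxA cluster 7 of 9 tested genes fell, in HoxB 9 of 10, in HoxC 6 of 8 and in HoxD 3 of 6, with the same counts without replicate 2. Hoxc13, Hoxd9 and Hoxd13 rose, at cKO means of 0.909, 2.22 and 0.155 CPM, and Hoxd9 and Hoxd13 were not called without replicate 2 (adjusted p = 0.0696 and 0.0698), nor was Hoxd9 in the day 6 libraries fitted alone (adjusted p = 0.072). Median log2 fold changes were -1.43, -1.76, -2.46 and -0.61. Hoxb9 was at 411, 412 and 407 CPM in parental and 32, 19.8 and 37.6 CPM in cKO libraries. Hoxd4 was at 75.3, 74.6 and 73.3 and 12.6, 4.19 and 12.9 CPM. The groups were far apart in both genes, with log2 fold changes of -3.78 ± 0.20 and -2.91 ± 0.35 (adjusted p = 3.55e-09 and 1.56e-05). Towards the anterior end of a cluster, Hoxa2 was not called, at -0.07 ± 0.32 (adjusted p = 0.888). Differences between Hox genes were not tested. The HoxB cluster lies on chromosome 11, whose expressed genes had a median of -0.49.

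Notch genes, which time segmentation and hold neural progenitors undifferentiated, had 14 lower and 3 higher members of 22 (median -0.85), or 14 and 4 without replicate 2. The ligand gene Dll1 was at 68.9, 68.1 and 68.3 CPM in parental and 14.7, 5.67 and 15.7 CPM in cKO libraries, the effector Hes5 at 60.8, 61.99 and 60.9 and 6.196, 1.197 and 7.08 CPM. Dtx4, which codes for a ubiquitin ligase of the pathway, was at 330.1, 309 and 322 and 65.3, 47.02 and 62.7 CPM. No library of either genotype came near the other's range, and the log2 fold changes were -2.51 ± 0.27, -3.67 ± 0.41 and -2.46 ± 0.10 (adjusted p = 3.27e-06, 7.53e-06 and 1.35e-11). Nrarp, a feedback inhibitor, changed by -1.85 ± 0.26 (adjusted p = 2.79e-05). The receptor gene Notch3 and the ligand gene Jag1 were not called, at 0.26 ± 0.19 (adjusted p = 0.294) and 0.14 ± 0.09 (adjusted p = 0.206). Jag1 was called higher in the fit without replicate 2. The 21 presomitic mesoderm and segmentation genes had 6 higher and 6 lower (median 0.05), or 9 and 6 without replicate 2.

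Of 15 Wnt ligand genes 9 were higher and none lower (median 1.49), and without replicate 2 there were 9 higher and 1 lower (median 0.86). Wnt6, of surface ectoderm and other epithelia, was at 3.17, 4.802 and 3.82 CPM in parental and 24.04, 108 and 26.2 CPM in cKO libraries. Wnt7b, of epithelia and brain, was at 6.46, 5.85 and 6.08 and 19.1, 67.6 and 19.1 CPM. Replicates 1 and 3 lay above every parental library and replicate 2 above those, with log2 fold changes of 3.74 ± 0.51 and 2.52 ± 0.39 (adjusted p = 5.47e-05 and 0.00011), or 2.66 and 1.64 without replicate 2. Wnt7a, at 16.7, 14.8 and 16.4 and 7.12, 34.9 and 5.71 CPM, was split by replicate 2 and fell by 1.31 without it (adjusted p = 1.16e-09). Dkk1 and Sfrp5, secreted inhibitors, rose by 3.76 ± 0.47 and 2.57 ± 0.46 (adjusted p = 5.88e-06 and 0.000185), and Axin2, a general feedback target, was at 62.9, 63.4 and 59.4 and 46.1, 65.9 and 49.2 CPM (adjusted p = 0.229). Axin2 was called lower in the fit without replicate 2. The 23 feedback and target genes had 11 higher and 5 lower, or 10 and 6 without replicate 2.

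Of 32 genes of epithelial junctions 31 were higher in cKO cells (median 2.24), 30 without replicate 2 (median 1.46), and none lower in either fit. Dsp, the desmosomal plaque protein desmoplakin, was at 59.9, 59.3 and 54.2 CPM in parental and 207, 1158 and 219.5 CPM in cKO libraries. Krt8 and Krt18, the keratin pair of simple epithelia, were at 128, 132 and 118 and 98.2, 96.2 and 83.4 CPM in parental libraries and 334, 1912 and 330.3 and 245, 1568 and 246 CPM in cKO libraries. Every cKO library exceeded every parental one, and replicate 2 exceeded its replicates by more than they exceeded the parental libraries. The log2 fold changes were 3.19 ± 0.53, 2.77 ± 0.54 and 2.89 ± 0.57 (adjusted p = 0.000361, 0.00115 and 0.00128), and 1.88, 1.40 and 1.40 without replicate 2. St14, a membrane protease of epithelia, rose by 3.40 ± 0.55 (adjusted p = 0.000259), or by 2.08 without replicate 2. Grhl1, a transcription factor of epithelia, was the junction list's member not called (adjusted p = 0.659). Of 7 tested keratins 6 rose, and without replicate 2 Krt80 was not called (adjusted p = 0.206) and Krt17 fell (adjusted p = 0.00967).

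Among basement membrane genes, Lamb3, a laminin beta chain of epithelia, was at 0.634, 0.676 and 0.376 CPM in parental and 3.42, 16.2 and 3.54 CPM in cKO libraries and was higher in all of the latter (3.72 ± 0.55, adjusted p = 5.22e-05, or 2.56 without replicate 2). Lama3, an alpha chain found with it, was at 1.31, 1.18 and 1.88 and 1.02, 14.9 and 1.56 CPM, so that only replicate 2 was high. Its call (2.05 ± 0.77, adjusted p = 0.0443) was lost without that library, where the value was -0.12 (adjusted p = 0.743). Itga6 and Itgb4, the chains of the hemidesmosomal integrin, rose by 1.54 ± 0.28 and 2.10 ± 0.56 (adjusted p = 0.000558 and 0.00723), or by 0.95 and 0.71 without replicate 2, and Itgb4 was not called in the day 6 libraries fitted alone (adjusted p = 0.0814). The 20 basement membrane genes had 16 higher and 1 lower in each fit (medians 1.31 and 0.94), with 15 of the higher calls shared.

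**Figure D3:**
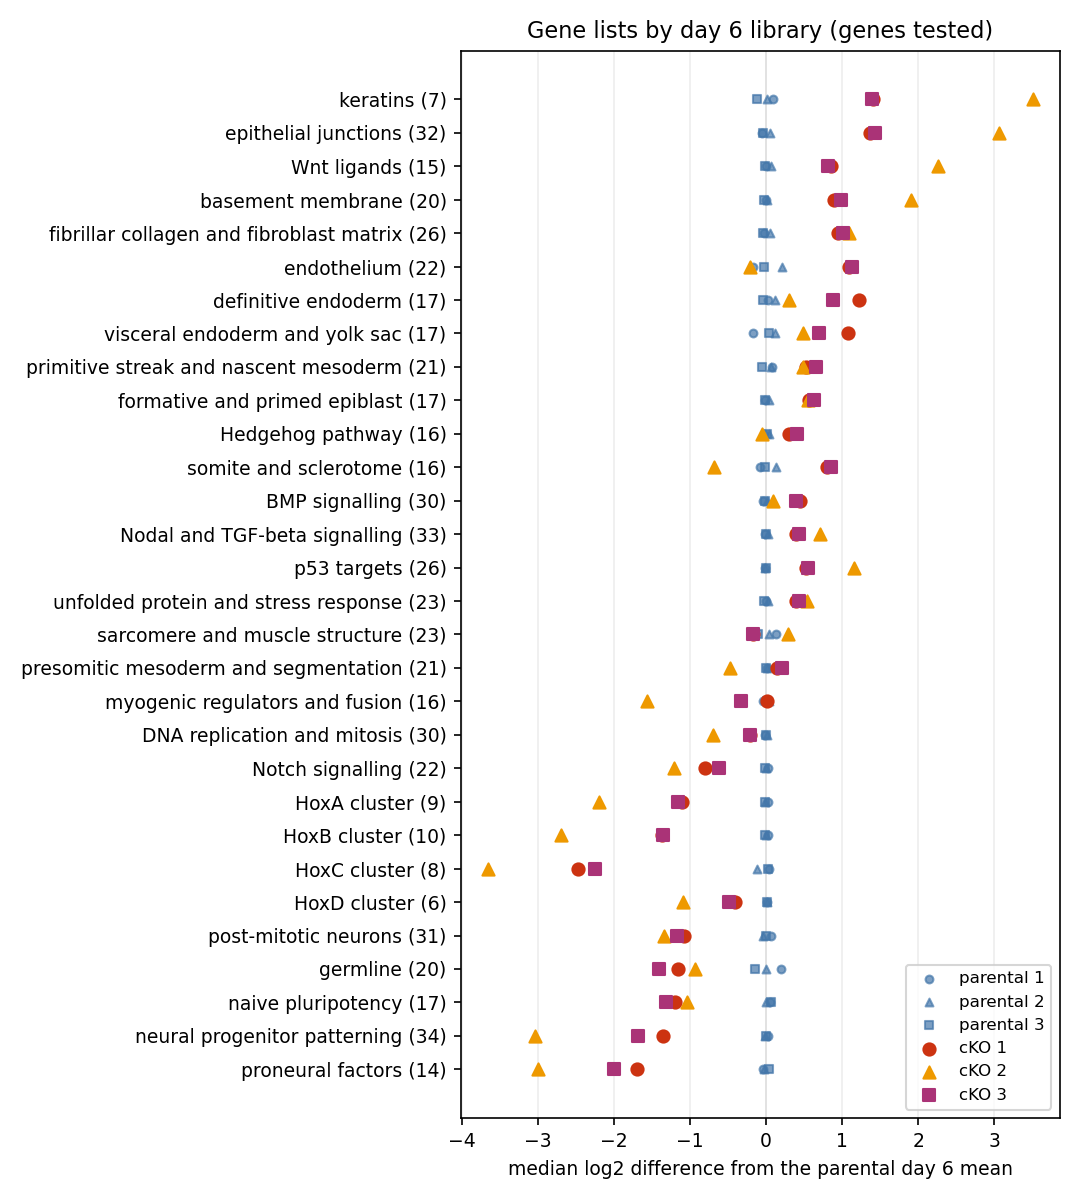
Median log2 difference from the parental day 6 mean (horizontal axis) in each day 6 library for 30 gene lists (vertical axis, number of tested genes in brackets), parental in blue and cKO in warm colours. The cKO libraries lie to the right for keratins, epithelial junctions and matrix and to the left for neural, Hox and Notch genes, while cKO replicate 2 (triangle) falls on the other side of its replicates for somite and sclerotome genes (-0.68 against 0.80 and 0.85) and endothelium (-0.21 against 1.09 and 1.14).

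Of 33 Nodal and TGF-beta genes 18 were higher and 7 lower (median 0.34), or 19 and 7 without replicate 2. Thbs1, a matrix protein that activates latent TGF-beta and is induced by it, was at 86.6, 84.1 and 80.5 CPM in parental and 272, 2368 and 324 CPM in cKO libraries. Ccn2, a matricellular target of TGF-beta and of YAP, was at 68.3, 67.3 and 63.5 and 172, 794 and 171 CPM. The ligand gene Inhba was at 2.66, 3.28 and 2.44 and 6.47, 33.3 and 8.17 CPM. Each cKO library lay above each parental one, replicate 2 far above the rest, with log2 fold changes of 3.56 ± 0.66, 2.51 ± 0.46 and 2.50 ± 0.53 (adjusted p = 0.000784, 0.000713 and 0.0018), and 1.83, 1.37 and 1.35 without replicate 2. The receptor gene Tgfbr1 was at 172, 179 and 175 and 166, 108 and 172 CPM (adjusted p = 0.15). Of 30 BMP genes 16 were higher and 5 lower (median 0.42), or 18 and 4 without replicate 2. Bmp4, a ligand, was at 5.07, 4.87 and 6.14 and 29.7, 49.6 and 26.4 CPM. Nog, a secreted antagonist, was at 3.68, 2.71 and 3.38 and 12.6, 38.04 and 10.7 CPM. Msx1, a target gene of BMP signals in several tissues, was at 7.73, 8.25 and 8.08 and 1.62, 0.368 and 1.56 CPM. Ligand and antagonist were higher in every cKO library and Msx1 lower in every one, with log2 fold changes of 2.73 ± 0.24, 2.65 ± 0.47 and -2.76 ± 0.34 (adjusted p = 1.21e-07, 0.000328 and 3.81e-06), and 1.85 for Nog without replicate 2. Smad1, a signal transducer of BMP receptors, was not called (-0.12 ± 0.09, adjusted p = 0.27). Other BMP target genes of the list differed from Msx1: Bambi, Msx2, Id1 and Id2 were higher in both fits. Id4 was not called, and Id3 was lower, but not without replicate 2.

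Of 26 genes of fibrillar collagen and fibroblast matrix 19 were higher and 1 lower (median 0.94), or 20 and 1 without replicate 2. The 3 cKO libraries had similar medians of 0.94, 1.09 and 1.01 in log2 difference from the parental mean. Fn1, fibronectin, was at 1132, 1098 and 1123 CPM in parental and 2088, 6391 and 2206 CPM in cKO libraries (1.67 ± 0.32, adjusted p = 0.000925, or 0.94 without replicate 2). Fbln5, which helps to assemble elastic fibres, was at 1.099, 1.52 and 0.877 and 13.1, 51.4 and 15.4 CPM. Lum, a collagen-binding proteoglycan, was at 0.338, 0.135 and 0.188 and 2.59, 1.43 and 3.83 CPM. All cKO libraries exceeded all parental ones in these genes (log2 fold changes of 4.46 ± 0.59 and 3.54 ± 0.59, adjusted p = 3.84e-05 and 9.91e-05, or 3.54 and 3.84 without replicate 2), replicate 2 being highest for Fbln5 and lowest for Lum. Col1a1, the main fibrillar collagen chain of fibroblasts, was at 354, 352 and 353 and 328, 665 and 344 CPM and was not called (adjusted p = 0.177).

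Among the largest increases outside these lists were genes with very different levels in the 3 cKO libraries. Cyp1a1, a cytochrome P450 induced through the aryl hydrocarbon receptor, was at 0.718, 0.778 and 0.752 CPM in parental and 7.31, 86.6 and 8.12 CPM in cKO libraries, Cav1, the coat protein of caveolae, at 1.65, 1.28 and 1.63 and 17.9, 104 and 17.99 CPM. Vnn1, a pantetheinase, was at 3.38, 3.48 and 3.01 and 41.3, 169 and 42.6 CPM. Replicate 2 was highest and the parental libraries lowest in each (5.49 ± 0.92, 4.95 ± 0.68 and 4.67 ± 0.49, adjusted p = 0.000314, 6.31e-05 and 6.06e-06), and without it the log2 fold changes were 3.35, 3.58 and 3.65. Scel, a protein of the cornified envelope, and Msln, mesothelin of mesothelial cells, rose by 4.65 ± 0.60 and 4.61 ± 0.89 (adjusted p = 3.69e-05 and 0.000832), or by 3.70 and 2.64 without replicate 2. Among the largest decreases, Fndc5, the precursor of irisin, was at 93.3, 89.01 and 95.8 and 3.01, 5.07 and 3.83 CPM. Trim9, a ubiquitin ligase of neurons, was at 22.7, 22.6 and 24.4 and 2.59, 0.2303 and 1.37 CPM. All cKO libraries were lower than all parental ones in both (-4.54 ± 0.16 and -4.05 ± 0.50, adjusted p = 2.44e-12 and 2.75e-05).

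Of 21 primitive streak genes 10 were higher and 3 lower (median 0.71), or 9 and 2 without replicate 2. T, which marks streak, tail bud and notochord, was at 1.69, 1.49 and 1.13 CPM in parental and 33.7, 11.3 and 37.4 CPM in cKO libraries. Eomes, of the anterior streak, was at 0.592, 0.879 and 0.313 and 5.13, 1.52 and 4.82 CPM. Replicates 1 and 3 were highest in both and replicate 2 still above the parental libraries (log2 fold changes of 4.22 ± 0.51 and 2.57 ± 0.41, adjusted p = 2.51e-05 and 0.000108). The 17 definitive endoderm genes had 9 higher and 2 lower, or 11 and 2 without replicate 2. The markers Sox17, Foxa2 and Cxcr4 summed to 29.4 to 30.9 CPM in parental and 33.4, 10.2 and 32.0 CPM in cKO libraries. Sox17 and Foxa2 were higher in both fits. Cxcr4, the most highly expressed of them, was lower in both (from 28.9, 27.7 and 27.2 to 18.4, 5.25 and 18.8 CPM). Cer1, a secreted antagonist of Nodal, BMP and Wnt ligands, was at 0.0423, 0.102 and 0 and 2.64, 0.691 and 3.16 CPM (5.10 ± 0.78, adjusted p = 0.000182). Trh, the gene of thyrotropin-releasing hormone, was at 1.35, 0.879 and 1.44 and 34.03, 9.44 and 31.9 CPM (4.40 ± 0.44, adjusted p = 4.86e-06). Replicate 2 lay between its replicates and the parental libraries in both. The 17 visceral endoderm and yolk sac genes had 8 higher and 1 lower (11 and 1 without replicate 2), and the defining markers Afp and Apoa1 had too few reads to be tested.

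Replicate 2 parted from its replicates in endothelial and blood genes. Of 22 endothelial genes 8 were higher and 1 lower, but 19 and 1 without replicate 2. The median difference from the parental mean was 1.09 and 1.14 in replicates 1 and 3 against -0.21 in replicate 2. Etv2, which starts the endothelial and blood programme, was at 0.254, 0.913 and 0.9395 CPM in parental and 2.77, 0.507 and 3.68 CPM in cKO libraries, Tal1, a factor of early blood and endothelium, at 0.507, 1.32 and 1.31 and 4.86, 1.24 and 5.05 CPM. Fli1 was at 9.55, 11.3 and 9.64 and 17.6, 4.88 and 19.7 CPM. In each, replicates 1 and 3 lay above all parental libraries and replicate 2 within or below their range, and Fli1 was called only without it (0.87, adjusted p = 1.84e-05). Over all libraries Etv2 and Tal1 rose by 1.73 ± 0.50 and 1.83 ± 0.47 (adjusted p = 0.00882 and 0.00386), but not when the day 6 libraries were fitted alone (adjusted p = 0.117 and 0.0542). The 12 blood genes had 6 higher and 3 lower, or 7 and 1 without replicate 2. Flt1, a VEGF receptor, was higher in all cKO libraries (from 17.96, 18.6 and 17.1 CPM in parental to 59.7, 53.8 and 59.3 CPM in cKO libraries, 1.69 ± 0.15, adjusted p = 7.93e-08). Lateral plate and cardiac genes had 6 higher and 1 lower member of 22, or 8 and 2 without replicate 2, among them Foxf2 and Foxf1 of visceral and limb mesenchyme (3.92 ± 0.46 and 2.16 ± 0.53, adjusted p = 2.18e-06 and 0.00268), the latter with an adjusted p of 0.0509 in the day 6 libraries fitted alone. Intermediate mesoderm and kidney genes had 4 higher and 5 lower of 15, or 6 and 5 without replicate 2: Pax2, of kidney and midbrain, changed by -2.94 ± 0.41 (adjusted p = 1.58e-05), while Six2 and Gdnf, of kidney mesenchyme, rose by 2.16 ± 0.43 and 3.10 ± 0.47 (adjusted p = 0.00048 and 3.91e-05).

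Of 13 tested POU genes, Pou2f1 included, 6 were lower and 1 higher, or 7 and 2 without replicate 2. Pou2f2, which codes for Oct2, the close relative of Oct1, was at 7.099, 4.19 and 4.32 CPM in parental and 0.832, 0.737 and 0.85 CPM in cKO libraries. Pou3f2 and Pou3f3, of neural progenitors and neurons, were at 201, 189.6 and 196 and 89.2, 85.6 and 86.1 CPM in parental and 37.96, 9.53 and 38.6 and 23.9, 7.32 and 24.5 CPM in cKO libraries. Parental libraries exceeded all cKO libraries in each, with log2 fold changes of -2.68 ± 0.23, -2.77 ± 0.38 and -2.23 ± 0.33 (adjusted p = 7.83e-08, 6.42e-05 and 8.44e-05). Pou3f1, which codes for Oct6 of the formative epiblast and other tissues, was the member that rose, from 2.96, 2.81 and 3.57 to 13.4, 67.8 and 11.6 CPM (3.33 ± 0.57, adjusted p = 0.0004, or 2.04 without replicate 2). Pou5f1 was at 6.59, 6.02 and 6.2 and 1.25, 6.12 and 4.11 CPM, where replicate 2 alone lay in the parental range (adjusted p = 0.0825, and 0.00665 without replicate 2). The third member of the Oct1 subfamily, Pou2f3, was at 1.01 CPM or less in all 6 libraries (adjusted p = 0.271).

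Of 17 genes of naive pluripotency 13 were lower and 1 higher (median -1.70), or 12 and 1 without replicate 2. The 16 general pluripotency genes had 6 lower and 3 higher, or 8 and 5 without replicate 2. Nanog was at 13.01, 12.2 and 15.9 CPM in parental and 2.36, 1.98 and 2.74 CPM in cKO libraries (-2.53 ± 0.15, adjusted p = 5.29e-10). Dppa3, of the early germline and naive cells, was at 3.17, 3.58 and 1.69 and 0.3699, 0.184 and 0.378 CPM (-3.20 ± 0.29, adjusted p = 1.32e-07). Klf5, the member that rose, is also an epithelial gene, and was at 15.6, 12.1 and 15.6 and 54.6, 227 and 55.02 CPM (2.97 ± 0.46, adjusted p = 0.000191, or 1.94 without replicate 2). The 17 formative and primed epiblast genes had 9 higher and 2 lower, or 10 and 1 without replicate 2, among them Otx2, also a gene of anterior neural and endodermal tissue (from 0.3803, 0.237 and 0 CPM in parental to 4.81, 1.796 and 4.25 CPM in cKO libraries, 3.95 ± 0.53, adjusted p = 2.15e-05).

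Of 20 germline genes 13 were lower and none higher, or 15 and none without replicate 2. Stra8, a retinoic acid-induced gene needed for entry into meiosis, was at 15.2, 13.97 and 12.96 CPM in parental and 0.0462, 0 and 0.0944 CPM in cKO libraries, the latter standing for 2 libraries with reads and 1 with none. Dmrt1, a testis and germ cell factor, was at 8.24, 7.98 and 8.96 and 0.3699, 0.461 and 0.708 CPM. Genes outside that list with a known testis bias stood beside them among the largest decreases: Cyct, testis cytochrome c, was at 7.31, 6.02 and 7.52 and 0, 0.184 and 0.0944 CPM, and the X-linked genes Usp26 and Nxf3 at 11.9, 12.2 and 10.96 and 5.62, 4.84 and 6.58 CPM in parental and 0.277, 0.414 and 0.0944 and 0.139, 0.414 and 0.236 CPM in cKO libraries. All 3 cKO libraries were far below the parental range in these genes, and replicate 2 lay with its replicates. The log2 fold changes were -8.06 ± 0.32, -4.01 ± 0.19, -6.12 ± 0.32, -5.44 ± 0.24 and -4.39 ± 0.27 (adjusted p = 9.24e-12, 3.92e-11, 1.08e-10, 2.75e-11 and 1.36e-09), and -7.01 for Cyct without replicate 2. At day 0 the same genes were also lower in cKO cells, with log2 fold changes of -2.98, -2.19, -1.715, -3.38 and -2.10 in that order. Over 394 X-linked genes with a mean of at least 5 CPM the median was -0.03. The 19 retinoic acid pathway genes had 6 higher and 7 lower, or 8 and 7 without replicate 2: Rdh10, the enzyme that starts retinoic acid synthesis from retinol, rose from 15.8, 14.7 and 16.5 to 52.8, 34.2 and 56.7 CPM (1.61 ± 0.14, adjusted p = 9.60e-08).

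Histone genes of several families were lower in cKO cells. The H2B genes are a textbook target of Oct1 through an octamer in their promoters, and are described with that sequence. Of 15 tested H2B genes 10 were lower and none higher (median -0.94), or 10 and 1 without replicate 2. Of the other families, 6 of 8 H1, 9 of 11 H3 and 9 of 10 H4 genes fell, with medians of -0.95, -0.81 and -0.76, while 4 of 14 H2A genes fell, a share near that over all genes. Without replicate 2 these counts were 6, 10, 9 and 3. Copies within a family are nearly identical, and how reads shared by copies were assigned is not given. Replication-dependent histone mRNAs lack poly(A) tails, and whether RNA was selected for such tails is not given either, so a histone gene's own value is uncertain. H2bc8 was at 174, 196 and 172 CPM in parental and 27.3, 17.9 and 33.4 CPM in cKO libraries. H2bc3 was at 101, 108 and 99.7 and 34.3, 21.1 and 27.1 CPM, without overlap (-2.79 ± 0.21 and -1.90 ± 0.14, adjusted p = 1.99e-07 and 1.19e-08). The 30 genes of DNA replication and mitosis had 20 lower and none higher (median -0.38), or 19 and 3 without replicate 2.

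The octamer ATGCAAAT was searched on both strands in RefSeq promoter windows of GRCm38.p6, 250 bases before to 50 bases after a gene's start, and its reverse complement reads ATTTGCAT. Of 12632 tested genes with a window 221 (1.75%) held it, against 45 of 2909 higher genes (1.55%), 81 of 3635 lower genes (2.23%) and 95 of 6088 not called (1.56%). Among genes called in both fits and at least 2-fold changed over all libraries, the share was 1.79% of 1007 higher and 4.26% of 986 lower genes. These shares count a match in any window of a gene. In the first listed window only, the last 2 were 1.39% and 3.96%. Of the H2B genes, 7 had a window with the octamer and a median log2 fold change of -1.47 (range -2.79 to -0.69), 6 of them lower, and 6 had a window without it and a median of -0.53 (range -6.24 to 0.19), 3 of them lower. Without replicate 2 the numbers lower were 7 and 2. The split of the H2B genes was made after their values were seen, and the lowest value of all, that of H2bu2 on chromosome 11 (from 55.6, 50.96 and 53.05 CPM in parental to 0.601, 0.322 and 1.18 CPM in cKO libraries, -6.24 ± 0.26, adjusted p = 3.36e-11), belongs to a gene without the octamer in its window. The windows below, each written on the strand of its gene, belong to H2bc8, H2bc3 and the lower genes Dll1 and Neurog1. Capitals mark the octamer or its reverse complement. A match is a description of the letters and shows no binding.
H2bc8 (chr13:23571150-23571449, plus strand): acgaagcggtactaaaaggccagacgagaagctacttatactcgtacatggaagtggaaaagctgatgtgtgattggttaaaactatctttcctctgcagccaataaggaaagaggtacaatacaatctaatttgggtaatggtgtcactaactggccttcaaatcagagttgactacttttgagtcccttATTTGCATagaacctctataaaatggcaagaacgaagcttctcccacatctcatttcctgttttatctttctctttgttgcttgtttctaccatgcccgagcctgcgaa
H2bc3 (chr13:23746484-23746783, plus strand): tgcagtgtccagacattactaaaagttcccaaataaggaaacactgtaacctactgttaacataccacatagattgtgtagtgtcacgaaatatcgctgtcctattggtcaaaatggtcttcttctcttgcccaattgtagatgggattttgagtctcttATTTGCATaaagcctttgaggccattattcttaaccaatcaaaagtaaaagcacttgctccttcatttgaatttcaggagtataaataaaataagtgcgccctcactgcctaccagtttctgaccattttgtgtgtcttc
Dll1 (chr17:15375774-15376073, minus strand): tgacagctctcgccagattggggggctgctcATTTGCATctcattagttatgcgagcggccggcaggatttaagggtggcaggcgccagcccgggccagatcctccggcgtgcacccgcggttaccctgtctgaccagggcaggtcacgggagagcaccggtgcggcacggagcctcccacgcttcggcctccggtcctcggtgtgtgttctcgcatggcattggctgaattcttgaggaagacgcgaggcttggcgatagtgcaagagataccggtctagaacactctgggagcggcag
Neurog1 (chr13:56252131-56252430, minus strand): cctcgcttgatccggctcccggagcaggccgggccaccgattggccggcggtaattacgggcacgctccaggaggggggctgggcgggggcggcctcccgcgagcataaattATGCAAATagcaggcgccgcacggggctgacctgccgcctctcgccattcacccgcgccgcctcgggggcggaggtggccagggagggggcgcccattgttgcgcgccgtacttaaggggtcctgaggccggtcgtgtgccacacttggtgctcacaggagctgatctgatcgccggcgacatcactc
The octamer begins 59 bases before the start of H2bc8 and 90 bases before that of H2bc3, as ATTTGCAT in both, 219 bases before that of Dll1, as ATTTGCAT, and 138 bases before that of Neurog1, as ATGCAAAT. Neurog1, a proneural factor of sensory and spinal neurons, was at 17.4, 17.3 and 18.2 CPM in parental and 1.99, 0.553 and 2.41 CPM in cKO libraries (-3.42 ± 0.33, adjusted p = 2.82e-07).

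Some further lists gave counts nearer those over all genes or mixed directions. The numbers higher and lower were 7 and 4 of 19 FGF ligands and receptors, 9 and 6 of 20 Eph receptors and ephrins, 5 and 2 of 16 surface ectoderm and placode genes, and 3 and 5 of 19 interferon and antigen presentation genes. Without replicate 2 these counts were 5 and 4, 10 and 6, 7 and 2, and 4 and 7. The 16 neural crest genes had 3 higher and 6 lower, or 5 and 7 without replicate 2, with Ngfr, a neurotrophin receptor on chromosome 11, at 28.4, 26.4 and 25.9 CPM in parental and 2.87, 8.29 and 5.05 CPM in cKO libraries (-2.32 ± 0.23, adjusted p = 8.11e-07). The 15 trophoblast genes had 8 lower and 2 higher, or 7 and 2 without replicate 2, the higher being Krt7 and Gata3, which simple epithelia and other tissues also make. The 18 mesenchymal genes linked to epithelial-mesenchymal transition had 9 higher and 3 lower, or 13 and 3 without replicate 2, among them Mmp14, a membrane metalloprotease (from 36.9, 39.1 and 34.6 CPM in parental to 102, 271 and 108 CPM in cKO libraries, 2.12 ± 0.28, adjusted p = 4.16e-05, or 1.51 without replicate 2). The 23 sarcomere and muscle structure genes had 6 higher and 8 lower in both fits.

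Of 26 p53 target genes 20 were higher and 2 lower (median 0.80), or 21 and 2 without replicate 2 (median 0.55). Perp, a target that is also a desmosomal protein, was at 8.197, 9.03 and 5.51 CPM in parental and 54.2, 282 and 56.5 CPM in cKO libraries. Pmaip1, which codes for the death factor Noxa, was at 19.3, 20.02 and 23.9 and 47.4, 199 and 50.8 CPM. Replicate 2 was several times above its replicates in both, which in turn lay above the parental libraries (4.09 ± 0.56 and 2.24 ± 0.42, adjusted p = 6.85e-05 and 0.000862, or 2.83 and 1.23 without replicate 2). Trp53 itself was at 183, 189.5 and 181 and 180.1, 151 and 176 CPM (adjusted p = 0.146). The 23 unfolded protein and stress genes had 16 higher and 1 lower (16 and none without replicate 2): Calr, a calcium-binding chaperone of the endoplasmic reticulum, was at 529.9, 553 and 529 and 892, 1119 and 937 CPM (0.87 ± 0.07, adjusted p = 4.94e-08). Ccnd2, a D-type cyclin, was among the genes that lost most CPM, from 869.5, 818 and 785 to 253, 164 and 273 CPM (-1.84 ± 0.14, adjusted p = 3.75e-08).

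Of 13 mitochondrially encoded genes of oxidative phosphorylation 10 were higher and 1 lower (median 0.42), or 12 and none without replicate 2. mt-Nd5, a subunit of complex I, was at 3104, 2947 and 3076 CPM in parental and 5137, 4985 and 4600.0 CPM in cKO libraries, without overlap (0.69 ± 0.07, adjusted p = 4.03e-07). Mitochondrial messages made up 3.00% to 3.20% of counts in parental and 4.13%, 3.72% and 3.87% in cKO libraries. The 25 glycolysis and hypoxia genes had 10 lower and 2 higher, or 9 and 5 without replicate 2. The 22 cholesterol synthesis genes had 4 higher and 5 lower, near the shares over all genes, or 8 and 4 without it. Of 24 Polycomb and Trithorax genes 13 were lower and 1 higher, or 14 and 5 without replicate 2, and 6 of the lower genes lie on chromosome 11. The 23 imprinted and IGF genes had 7 higher and 7 lower, or 9 and 9 without replicate 2: Igfbp5, an IGF-binding protein of many mesenchymal cells, lost most CPM among the called genes named here (from 1428, 1573 and 1436 CPM in parental to 601, 204 and 639 CPM in cKO libraries, -1.62 ± 0.32, adjusted p = 0.000992), and Grb10, an imprinted growth inhibitor, rose from 55.4, 63.3 and 56.3 to 212, 123 and 214 CPM (1.65 ± 0.15, adjusted p = 4.06e-07).

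Genes of chromosome 11 stood apart. Over 913 genes with a mean of at least 5 CPM on it, the median log2 fold change was -0.49, with 80 higher and 660 lower, or 76 and 708 without replicate 2, whereas the medians of the other autosomes ran from -0.15 on chromosome 16 to 0.04 on chromosome 1. The median difference from the parental mean was -0.49, -0.53 and -0.47 in cKO replicates 1, 2 and 3, and the median fold change was -0.49 without replicate 2. The same chromosome had medians of -0.39 at day 3 and -0.38 at day 0. Tested over genes outside chromosome 11, 3700 genes were higher and 4628 lower. Copy number was not measured in these files.

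**Figure D4:**
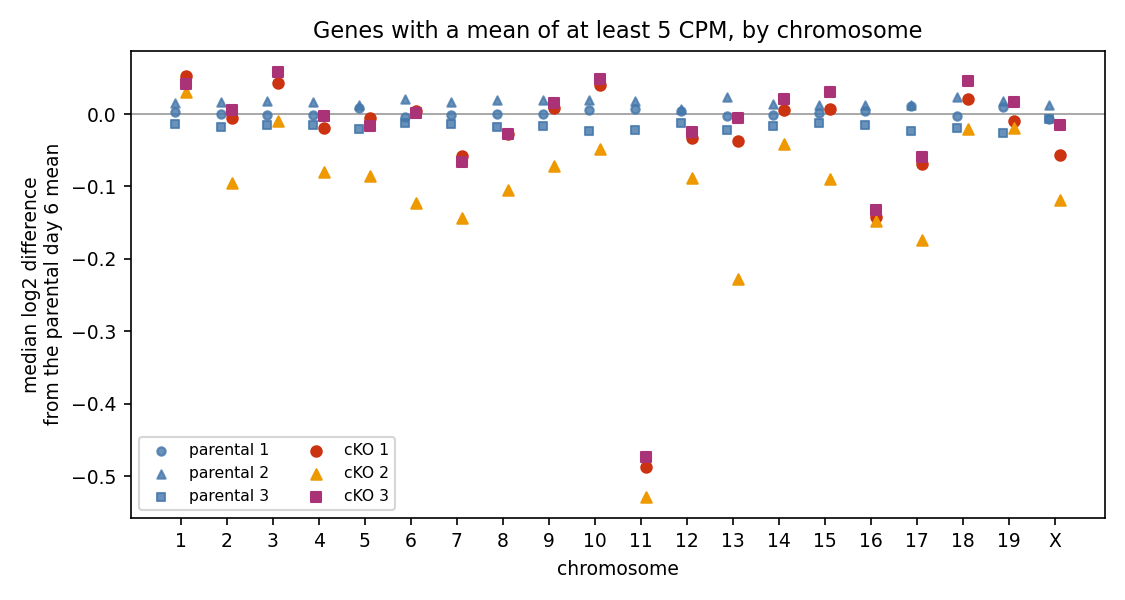
Median log2 difference from the parental day 6 mean (vertical axis) of genes with a mean of at least 5 CPM, by chromosome (horizontal axis), for each of the 6 day 6 libraries. The 3 cKO libraries lie at -0.49, -0.53 and -0.47 on chromosome 11 and between -0.23 and 0.06 on every other chromosome shown.

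The genotype difference at day 6 was compared with that at day 3 in the same fit. The effect differed between the days in 5272 of 20267 genes (26.0%), and in 6532 of 20814 without cKO replicate 2. Lower at day 3 and higher at day 6 were 210 genes, and the reverse held for 243, while 487 were higher and 1028 lower at both days. The median of chromosome 11 was -0.39 at day 3 and -0.49 at day 6, and how many of the 1028 genes lie on it was not counted. The 2 comparisons share no library. T fell by 2.59 at day 3 and rose by 4.22 ± 0.51 at day 6, a difference of effects of 6.81 on the log2 scale (adjusted p = 1.09e-05). Its mean was 317 ± 45.3 CPM in parental and 52.3 ± 23.4 CPM in cKO cells at day 3 (SD, n = 3), against 1.13 to 1.69 CPM and 11.3 to 37.4 CPM at day 6. Sp5, a Wnt target, followed the same pattern (differences of -1.87 and 2.26 ± 0.26), and Robo3 (1.38 and -3.71 ± 0.31) and Fgf4 (1.5 and -2.13 ± 0.29), a ligand of naive cells, the reverse. Hoxb9, on chromosome 11, was lower at both days: it changed by -1.92 at day 3 (adjusted p = 0.0158) and -3.78 ± 0.20 at day 6. Dtx4, Ephb1 and Sox9 were higher at day 3 and lower at day 6, and Tnfrsf19, Ifitm3 and mt-Co1 the reverse. The day 6 calls of Ephb1, Ifitm3 and Sox9 were lost when the day 6 libraries were fitted alone (adjusted p = 0.0987, 0.0799 and 0.0865).

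**Figure D5:**
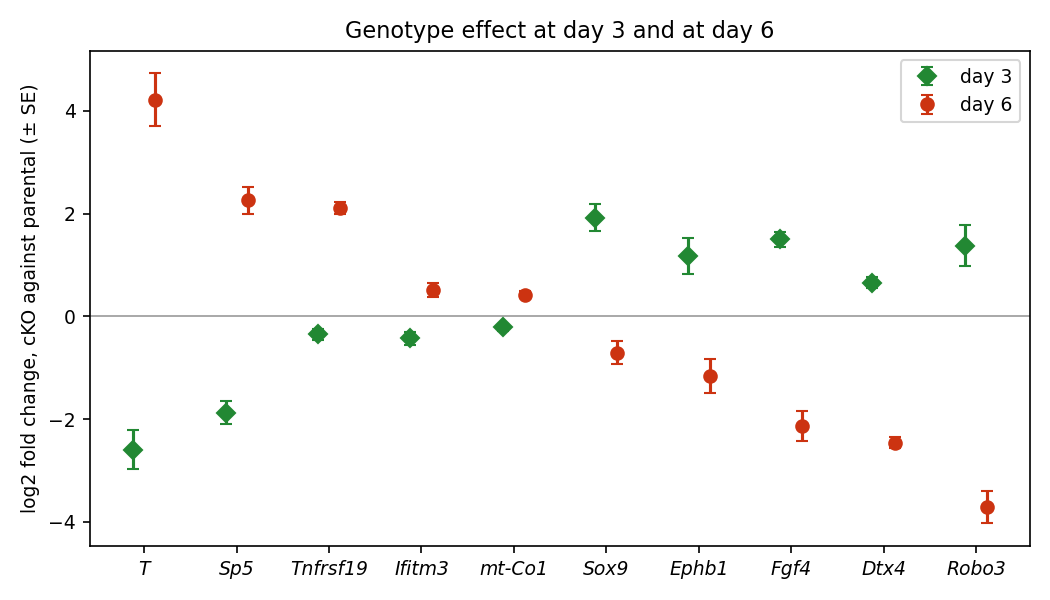
Log2 fold change of cKO against parental (vertical axis, bars ± SE) at day 3 (diamonds) and day 6 (circles) for the named genes called in opposite directions at the 2 days, with a called difference of effects (horizontal axis). T, Sp5, Tnfrsf19, Ifitm3 and mt-Co1 pass from below 0 to above it, and Sox9, Ephb1, Fgf4, Dtx4 and Robo3 from above 0 to below it.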

How the data were processed

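The authors deposited raw counts for each Ensembl gene in each library, not normalized. Per the submitters' processing notes, Novoalign and DESeq2 1.10.0 and the builds mm10 and GRCm38 were used. How reads were counted, with which annotation and strand rule, is given in none of the sources used. Overlapping, antisense and near-identical genes may therefore share reads. Per the labels' protocols, total RNA was isolated with Trizol and prepared with standard Illumina methods.

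From the deposited counts, 20267 of 25279 genes passed filterByExpr on the 6 groups. With TMM factors, a group means model of all 18 libraries was fitted by the robust quasi-likelihood method of edgeR 4.0.16 in R 4.3.3, so that the 6 groups share an estimate of the spread (biological coefficient of variation 13.5%, or 6.28% without cKO replicate 2). The contrast of cKO against parental at day 6, and its difference from that at day 3, were tested with two-sided F tests, and a gene was called at an adjusted p (Benjamini-Hochberg, over all genes tested) under 0.05. SE is the absolute log2 fold change divided by the square root of F. Levels are CPM with TMM effective library sizes. The whole fit was repeated without cKO replicate 2. Counting error is only a part of the spread between libraries.

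The 50 gene lists and their members were chosen with earlier results of these data known, so lists are described by counts and medians and not tested. Genes were named by rule: the POU family; the 15 largest called changes each way (protein-coding, no systematic symbol, a mean of at least 5 CPM, groups that do not overlap, called in both fits); up to 4 called members of each list with the largest changes and at least 1 CPM, and 2 of the highest not called; the 10 genes each way in which cKO replicate 2 lay farthest from its replicates; and the 5 called genes each way with the largest CPM difference. H2bc8, H2bc3, Itga6, Itgb4, Pax3, Uncx and Sox9 were named after their values were seen. So were the members of the BMP list and Hox clusters that are given by their calls alone. Some genes that the rule names are not reported here. Coordinates and biotypes are from GENCODE M21, which holds 25221 of the identifiers, and promoter windows from RefSeq (GRCm38.p6).

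Alternatives were RLE factors or total counts, no filter or at least 1 CPM in 3 libraries, the DESeq2 1.42.0 Wald test, the day 6 libraries alone, the day 3 and day 6 libraries, genes outside chromosome 11, protein-coding genes, and each day 6 library left out. A fit of the day 6 libraries alone without cKO replicate 2 was added after the data were seen. The tests were checked on simulated data with the same spread for all genes and no outlying library, unlike the real libraries. There the edgeR test recovered 92.5% of 2-fold changes for the day 6 contrast and 76.1% for the difference between days. Of 1.5-fold changes it recovered 31.3% and 7.5%.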

Additional observations from a re-analysis of the deposited data

Results flagged for a closer look

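The genotype effect differed between day 6 and day 3 in 5272 genes, by the edgeR test of the difference of effects with an adjusted p under 0.05. Among the named genes, 10 were picked for calls in opposite directions at the 2 days and a difference of effects past that threshold. Passing it over all libraries was thus part of the selection. Each of them also passed it without cKO replicate 2.

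The effect at day 6 minus that at day 3, as a log2 value, was 6.81 for T (adjusted p = 1.09e-05), which marks streak and notochord, and 4.13 for Sp5 (adjusted p = 5.12e-07), a Wnt target. It was 2.46 for Tnfrsf19 (adjusted p = 1.61e-08), a receptor of the tumour necrosis factor family, 0.936 for Ifitm3 (adjusted p = 0.0013) and 0.632 for mt-Co1 (adjusted p = 0.000125). In these 5 genes the cKO level was below the parental one at day 3 and above it at day 6.

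The opposite order held for Robo3, the commissural axon receptor, with a difference of -5.09 (adjusted p = 1.44e-06), Fgf4 with -3.63 (adjusted p = 1.39e-06), Dtx4 with -3.11 (adjusted p = 3.38e-10), Sox9 with -2.62 (adjusted p = 8.30e-05) and Ephb1, an ephrin receptor, with -2.34 (adjusted p = 0.00161). At day 3 the mean level of Dtx4 was 23.6 ± 1.11 CPM with cKO and 14.98 ± 0.564 CPM with parental cells (SD, n = 3). Ephb1, Ifitm3 and Sox9 were not called at day 6 when the day 6 libraries were fitted alone (adjusted p = 0.0987, 0.0799 and 0.0865).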

How the results depend on the processing

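The counts of 4036 higher and 5202 lower genes, and of 1687 and 1803 by at least 2-fold, stayed within 1.5 times under the other scalings, filters, DESeq2, gene subsets and each library left out, with 3480 to 4937 higher and 3846 to 5939 lower (3492 to 4170 and 4363 to 5335 with a library left out). Of these settings total-count scaling gave the fewest higher and most lower genes. The exception was the fit of the day 6 libraries alone, with 2861 lower and 1195 lower by at least 2-fold. It also gave fewer higher genes, 2860, and 1264 by at least 2-fold, both within 1.5 times of the main counts. Its biological coefficient of variation was 21.5%, against 13.5% over all 18 libraries. When cKO replicate 2 was also left out, that value was 5.07%, with 4998 higher and 4888 lower genes. The count for the difference between days ran from 4231 to 6532 with a library left out. Of 314 named genes 220 were called, 191 of them in every alternative that tested them. With a library left out, the log2 fold changes of 45 named genes took the other sign, 2 of them with a call at either value: Lama3 (-0.12 to 2.55) and Kit (-0.21 to 0.28), each without cKO replicate 2. With the day 6 libraries alone and without it, the changes of sign with a call at either value were those of Ebf3 (0.20), Hoxa2 (0.35), Lama3 (-0.087), Kit (0.34) and H19 (0.11). Only Lama3 of these was called over all libraries. The cause was not tested. No paired analysis was possible because the labels carry no replicate number. With 3 libraries a group, an exact permutation test of a single value could not go below 0.1. Genes at a few reads, such as Stra8 in cKO cells, have fold changes that depth limits.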
